A study of Mus musculus with 6 samples.

Results

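Glucose is broken down to pyruvate by glycolysis, and pyruvate is either reduced to lactate and exported or carried into mitochondria and oxidised by the pyruvate dehydrogenase complex. A fixed list of 34 mouse genes for these steps was read from a table of 54532 genes by gene name, in pathway order, and compared between control and RBPMS libraries with and without control replicate 3. The list names the glucose transporters, the glycolytic enzymes and their regulators, lactate dehydrogenase, the lactate transporters, and the carriers, subunits and kinases of pyruvate entry. It was not chosen by a cut on these values, although earlier results of the same libraries were known when it was drawn up.

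Endothelial cells, which form the inner lining of vessels, came from mouse and were cultured in an endothelial medium with serum. For 72 h they carried a lentivirus, either with an empty vector (control, 3 libraries) or with RBPMS for overexpression (RBPMS, 3 libraries). Both groups were therefore exposed to virus, and there was no group without virus. RBPMS is an RNA-binding protein best known as a splicing regulator. The vascular bed, the strain, age and sex of the animals, the promoter of the vector and whether the replicates are separate cultures were not stated in the labels, so p-values measure the spread between these libraries, which may be technical.

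Endothelial cells are known to make most of their ATP by glycolysis even where oxygen is plentiful, and to raise it further when they sprout. Flux is controlled mainly at glucose uptake, at hexokinase and at phosphofructokinase, whose strongest activator is made by the Pfkfb enzymes, above all PFKFB3 in endothelium. Downstream, lactate dehydrogenase A and the monocarboxylate transporters dispose of pyruvate as lactate, while the Pdk kinases switch off pyruvate dehydrogenase and so keep pyruvate out of the citrate cycle.

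The libraries held 15779567 to 23076124 counts. Rbpms lay at 55.1 to 57.0 CPM (counts relative to the library total, scaled by edgeR's TMM method) in the controls and at 131 to 147 CPM with RBPMS. The 10 endothelial markers, among them Pecam1, Cdh5 and Vwf, summed to 14845 to 19048 CPM in the controls and 16264 to 17198 CPM with RBPMS. The lowest control sum was that of control replicate 3, and the sum hides opposite changes. Without that library 4 of the 10 (40%) passed the test described below, against 7.24% of all genes tested. Vwf and Kdr were lower with RBPMS, and Erg and Emcn higher. The summed levels were at most 7.79 CPM for 6 fibroblast markers, 1.73 CPM for 7 smooth muscle and pericyte markers (Rgs5 at 0 counts), 3.74 CPM for 5 cardiomyocyte markers and 0.123 CPM for 4 skeletal muscle markers (Ckm and Myh1 at 0 counts). Leukocyte markers, nearly all from Cd68, summed to 42.5 to 47.2 CPM in the controls and 54.8 to 59.8 CPM with RBPMS. Adgre1 and Cd3e were at 0 counts, Ptprc at 0 to 3, Itgam at 0 to 2 and Lyz2 at 10 to 52 counts in a library. The difference in this sum was almost all that of Cd68. Without control replicate 3, Cd68 passed the same test, higher with RBPMS, as 1 of the 2 leukocyte markers tested. What this says about leukocytes was not tested. Epithelial and mesothelial markers, mostly Msln, summed to 20.2 to 24.6 and 15.9 to 20.02 CPM, with Epcam, Krt18 and Cdh1 at 0 counts. Whether cells other than endothelial cells were present, and any part of them in the values below, was not tested. Control replicate 3 stood apart from the other 5 libraries: its log2 CPM correlated with theirs at 0.954 to 0.960, against up to 0.995 among the others. The main results are therefore given over all 6 libraries and over the 5 libraries without it.

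Without control replicate 3, transcripts of the glucose transporter Slc2a1, of a phosphofructokinase subunit and a regulator of that enzyme, and of the later enzymes Tpi1 and Pkm fell with RBPMS, each by about 10 to 20%. The transcript of Pdk1, a kinase that restrains pyruvate oxidation, rose. Of the 34 genes 29 had enough counts to be tested. Slc2a1, Pfkl, Pfkfb3, Tpi1 and Pkm fell and Pdk1 rose, which makes 6 of 29 called (edgeR's quasi-likelihood test, Benjamini-Hochberg adjusted p under 0.05 over all 14123 genes tested). Among all genes tested 7.24% were called, 3.43% lower and 3.81% higher. Dropping control replicate 1 in addition lowered the count to 2 (Slc2a1 and Pfkl), and dropping control replicate 2 lowered it to 3 (these and Pfkfb3). All 5 genes that fell belong to the 21 tested genes from glucose uptake to lactate export, whose median log2 fold change was -0.14, and Pdk1 is the only one called of the 8 tested genes of pyruvate entry, whose median was -0.022. The median over the 29 genes was -0.091, with 20 of them below 0, against -0.0025 for all genes tested.

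Over all 6 libraries no gene of the list was called, and none of the 13898 genes tested, so the share called was 0%. At an unadjusted p under 0.05 in edgeR, 1050 genes passed, and DESeq2 called 56 genes and limma-voom 0. At that unadjusted threshold 3 of the 29 genes passed, Slc2a1, Pfkl and Slc16a1, all lower with RBPMS, against 4.08% of all genes passing in that direction. Of the 29 genes 23 had a fold change below 0, with a median of -0.084 against -0.0083 for all genes.

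The groups were also compared by overlap alone, with no model. With all 6 libraries every RBPMS value lay below every control value for 9 of 29 genes (Slc2a1, Pfkl, Tpi1, Pgk1, Eno1, Pkm, Ldha, Slc16a1 and Mpc2), where 12.5% of all genes did so. The RBPMS values all lay above the controls for 3 (Hk1, Pfkp and Pdk1), where 12.2% of all genes did so. Without control replicate 3 the counts were 13 lower, against 18.8% of all genes, and 3 higher, against 18.5%; the 4 added lower genes were Pfkm, Pfkfb1, Pfkfb3 and Pdha1. As a share of 29 the number higher was below the background in both cases. RNA came from whole cultures, in which fewer cells that express a gene and less of its RNA per cell cannot be told apart.

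**Figure D1:**
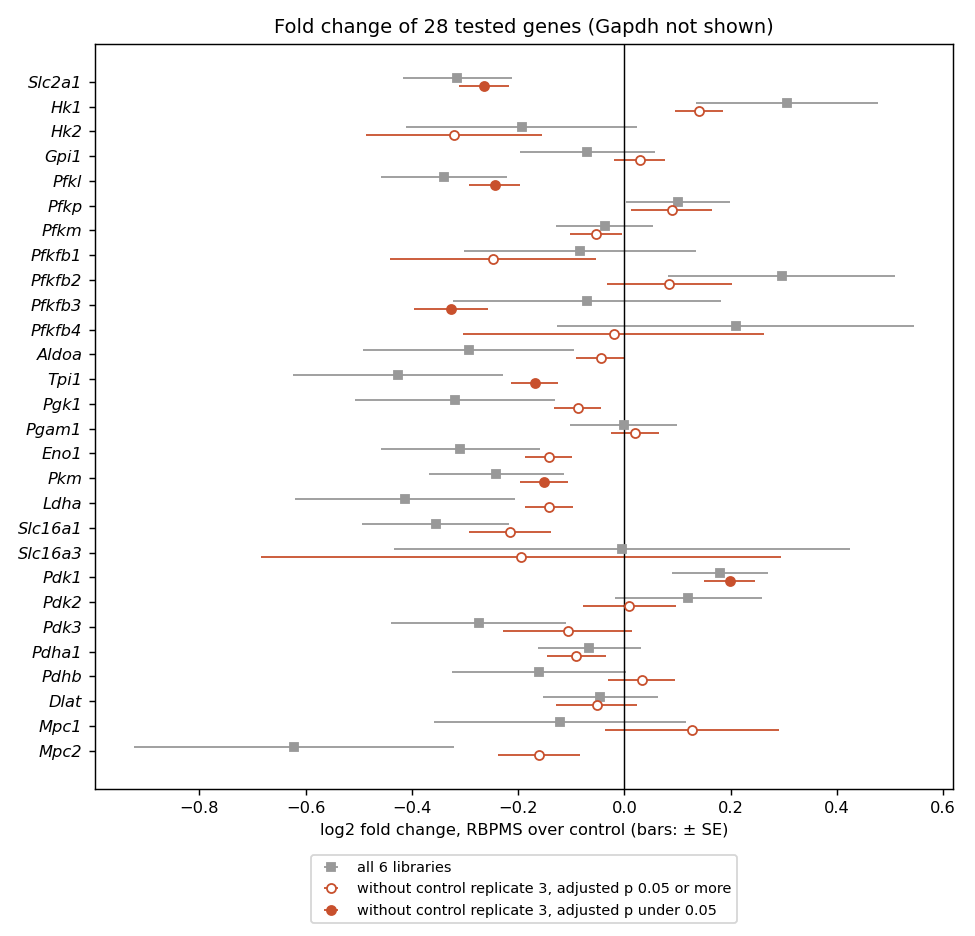
Log2 fold change of RBPMS over control with its standard error for 28 tested genes in pathway order, from all 6 libraries (grey squares) and without control replicate 3 (red circles, filled where the adjusted p is under 0.05). Gapdh is left out because its error is far larger. Filled points are Slc2a1, Pfkl, Pfkfb3, Tpi1 and Pkm to the left of 0 and Pdk1 to the right, and the error bars of the 6-library fit are wider for every gene shown except Slc16a3.

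Many genes of this pathway are known targets of the hypoxia-inducible factors, which bind the core letters ACGTG or GCGTG, and E-box factors such as MYC bind CACGTG. The DNA just before a transcript start of 4 of the 6 called genes is printed because these are control steps that were called: the glucose transporter, the liver-type phosphofructokinase, the bifunctional regulator and the pyruvate dehydrogenase kinase. The letters come from RefSeq (GRCm38.p6), read 5′ to 3′ on the gene's own strand. They end before both the start of the principal GENCODE transcript and the RefSeq start nearest to it. Every ACGTG or GCGTG, or its reverse complement, is in capitals.
Slc2a1 chr4:119108495-119108710 plus strand: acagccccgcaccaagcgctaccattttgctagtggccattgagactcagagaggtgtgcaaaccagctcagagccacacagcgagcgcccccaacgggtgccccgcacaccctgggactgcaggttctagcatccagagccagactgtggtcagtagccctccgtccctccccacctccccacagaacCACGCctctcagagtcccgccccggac
Pfkl chr10:78009808-78010004 minus strand: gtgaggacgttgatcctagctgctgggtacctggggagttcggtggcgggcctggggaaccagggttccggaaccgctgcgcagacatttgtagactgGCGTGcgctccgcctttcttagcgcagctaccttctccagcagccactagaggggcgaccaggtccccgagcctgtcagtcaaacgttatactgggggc
Pfkfb3 chr2:11502102-11502340 minus strand: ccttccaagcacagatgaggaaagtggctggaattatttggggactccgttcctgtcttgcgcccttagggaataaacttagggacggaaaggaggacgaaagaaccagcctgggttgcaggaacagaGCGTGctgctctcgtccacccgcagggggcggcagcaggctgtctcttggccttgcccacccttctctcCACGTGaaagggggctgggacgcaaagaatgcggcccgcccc
Pdk1 chr2:71872974-71873223 plus strand: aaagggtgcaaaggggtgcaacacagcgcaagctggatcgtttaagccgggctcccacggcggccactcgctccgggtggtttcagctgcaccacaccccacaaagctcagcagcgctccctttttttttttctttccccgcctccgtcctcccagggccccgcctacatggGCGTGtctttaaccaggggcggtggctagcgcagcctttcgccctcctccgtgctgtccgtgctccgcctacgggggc
For Pfkl and Pfkfb3 other annotated transcripts start further upstream, so these stretches lie inside the span of the gene given below, and exons of other transcripts are left out. A 300-base window ran from 250 bases before to 50 after the start. ACGTG or GCGTG stood on either strand in 26 of the 33 genes with a window (78.8%). The same held for 61.6% of 12594 windows of genes tested without control replicate 3 and 43.8% of all 32851 windows. Each of the 33 genes has 1 window, the nearest to its principal start, and some of them were not tested. The other shares count every window of a gene, so the units differ. The windows of the called genes Tpi1 and Pkm, not printed here, had 0 matches to either. For Slc2a1, Pfkfb3 and Pdk1 the window holds matches beyond the printed letters. At least 1 ACGTG, with or without GCGTG, was in 45.5% of the 33 windows and 25.4% of those of tested genes. At least 1 GCGTG, with or without ACGTG, was in 63.6% and 50.1%. CACGTG, whose letters hold ACGTG on both strands, was in 12.1% and 9.85%, and the Pfkfb3 window has it. A match describes the letters in this window and is neither a bound site nor a cause. Slc2a3 has no window in the table used.

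Glucose enters through the transporters Slc2a1 and Slc2a3. Slc2a1 (chr4:119108711-119137983, mm10, plus strand) is the main basal glucose transporter of endothelium. It stood at 195, 203 and 219 CPM in control replicates 1, 2 and 3 and at 171, 162 and 163 CPM in RBPMS replicates 1, 2 and 3. The groups did not overlap, and control replicate 3 was the highest of the 6 libraries. Without that library Slc2a1 fell by 0.26 ± 0.047 on the log2 scale (SE, n = 2 and 3; edgeR adjusted p = 0.00124), that is, dropped by 16.7%. The 6-library estimate was -0.31 ± 0.10 (SE; edgeR adjusted p = 0.587). Slc2a3, the neuronal-type transporter, had 2 counts in all, 1 each in RBPMS replicates 1 and 3, so Slc2a1 held at least 99.98% of the counts per kilobase of the pair in every library.

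Hexokinase traps glucose in the cell by phosphorylating it. Hk1, the form expressed in most tissues, was at 262, 269 and 179 CPM in the controls and 293, 300 and 284 CPM with RBPMS. All 3 RBPMS libraries lay above all controls, but control replicate 3 was far below the other 2 controls. Without control replicate 3 the estimate for Hk1 was 0.14 ± 0.046 on the log2 scale (edgeR adjusted p = 0.0682) and it was 0.31 ± 0.17 with that library, again without a call. Hk2, the inducible form, was much scarcer at 9.17, 7.15 and 6.12 CPM in the controls and 7.96, 5.62 and 5.97 CPM with RBPMS, and its groups overlapped (log2 fold change -0.32 ± 0.17 without control replicate 3, adjusted p = 0.282, and -0.19 ± 0.22 over 6 libraries). Gpi1, which turns glucose phosphate into fructose phosphate, ran from 430 to 540 CPM in the controls and 437 to 469 CPM with RBPMS, with overlapping groups.

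Phosphofructokinase commits sugar phosphate to glycolysis and is a tetramer of liver-type (Pfkl), muscle-type (Pfkm) and platelet-type (Pfkp) subunits. Pfkl (chr10:77986947-78010083, minus strand) was at 200, 204 and 242 CPM in the controls and 178, 169 and 163 CPM with RBPMS. Each RBPMS library was below each control, with control replicate 3 again the highest. Pfkl fell by 0.24 ± 0.048 on the log2 scale without control replicate 3 (edgeR adjusted p = 0.00275), that is, dropped by 15.6%. The value over 6 libraries was -0.34 ± 0.12 (adjusted p = 0.587). Pfkm showed no comparable difference, with 105, 109 and 103 CPM in the controls and 102, 105 and 101 CPM with RBPMS (-0.053 ± 0.049, adjusted p = 0.598 without control replicate 3, and -0.037 ± 0.092 over 6 libraries). Pfkp, at 31.1 to 33.8 CPM in the controls and 34.1 to 35.2 CPM with RBPMS, lay slightly higher in all RBPMS libraries without passing the test (0.089 ± 0.076, adjusted p = 0.571 without control replicate 3, and 0.10 ± 0.098 over 6 libraries).

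The Pfkfb genes encode enzymes that make and break down fructose bisphosphate in its regulatory form, the activator of phosphofructokinase. Pfkfb3 (chr2:11471433-11554077, minus strand), the form with the strongest kinase activity and a known driver of endothelial sprouting, was at 53.7, 50.4 and 26.7 CPM in the controls and 40.4, 42.8 and 41.2 CPM with RBPMS. The RBPMS libraries lay close together, below control replicates 1 and 2 and above control replicate 3. Pfkfb3 fell by 0.33 ± 0.069 without control replicate 3 (edgeR adjusted p = 0.0050), that is, dropped by 20.2%, the largest fall among the called genes of the list. With all 6 libraries the fold change was only -0.070 ± 0.25 (adjusted p = 0.896), so this call rests on leaving that control out. It was also lost when control replicate 1 was left out in addition (adjusted p = 0.0981).

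The other 3 forms were scarce. Pfkfb1 was at 2.86 to 4.25 CPM in the controls and 3.07 to 3.81 CPM with RBPMS. Pfkfb2 was at 10.1, 10.7 and 6.25 CPM in the controls and 10.5 to 11.5 CPM with RBPMS. Pfkfb4 was at 1.23 to 2.47 and 1.48 to 2.49 CPM. None of them was called, and in all 3 control replicate 3 was the lowest library, as it was for Pfkfb3.

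**Figure D2:**
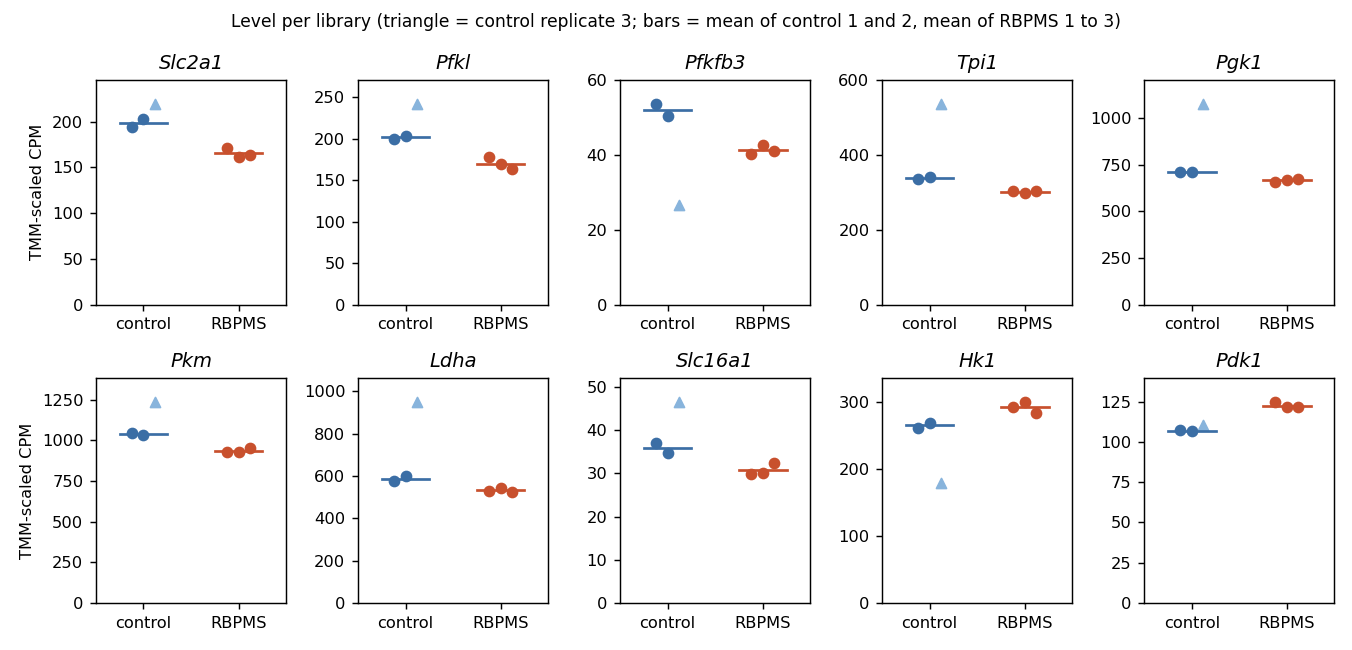
TMM-scaled CPM of 10 genes in each library, on linear axes that start at 0. Circles are control replicates 1 and 2 (blue) and RBPMS replicates 1 to 3 (red), the triangle is control replicate 3, and bars are the mean of control 1 and 2 and the mean of RBPMS 1 to 3. The triangle is above the other controls for Tpi1 (537 CPM), Pgk1 (1076 CPM) and Ldha (949 CPM) and below them for Pfkfb3 (26.7 CPM) and Hk1 (179 CPM).

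Aldolase splits the sugar, and triosephosphate isomerase interconverts the products. Aldoa, the main aldolase outside liver and brain, was at 960, 1000 and 1529 CPM in the controls and 949, 965 and 933 CPM with RBPMS. Control replicates 1 and 2 overlapped the RBPMS libraries, and the fold change without control replicate 3 was -0.045 ± 0.046 (edgeR adjusted p = 0.642), against -0.29 ± 0.20 with it. Aldoc, the brain form, had 0 to 6 counts in a library. Tpi1 (chr6:124810586-124814296, minus strand) was at 337, 342 and 537 CPM in the controls and 304, 297 and 303 CPM with RBPMS. The RBPMS libraries lay below all controls, and Tpi1 fell by 0.17 ± 0.044 without control replicate 3 (adjusted p = 0.0214), that is, dropped by 11.1%. Including it gave -0.43 ± 0.20 (adjusted p = 0.587), 2 to 3 times the size with a wider error. This call is also lost when control replicate 1 or 2 is left out in addition, or RBPMS replicate 1 or 2, with adjusted p from 0.082 to 0.117.

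Gapdh, which reduces NAD and makes the first high-energy phosphate of the pathway, is a common reference transcript, yet it varied more between libraries than any other tested gene of the list. Its counts were 516, 1467 and 203 in the controls and 2180, 195 and 179 with RBPMS, or 32.4, 90.4 and 8.93 CPM against 106, 9.06 and 9.80 CPM. The highest library, RBPMS replicate 1, was 11.9 times the lowest, and high and low libraries occurred in both groups. No other tested gene of the list spread by more than 2.41 times, the value for Mpc2. The fold change was -0.55 ± 0.59 without control replicate 3 (edgeR adjusted p = 0.668) and -0.067 ± 1.13 with it. Elsewhere in the annotation 174 genes had a transcript matched to Gapdh at 90% identity or more, called copies here. They held 56.6% of the counts of gene and copies together. Among them is Peli2, a different protein-coding gene whose whole count was added. The 56.6% and the sum below may therefore hold reads that are not Gapdh sequence. The sum over gene and copies was 85.5, 136 and 69.8 CPM in the controls and 153, 67.9 and 65.3 CPM with RBPMS, so the same 2 libraries remained the highest. How reads were divided among the copies is not known here, and the level of Gapdh is uncertain.

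Pgk1, Pgam1, Eno1 and Pkm complete the way to pyruvate, with ATP made at Pgk1 and Pkm. Pkm (chr9:59656368-59679375, plus strand), whose counts join the M1 and M2 splice forms of pyruvate kinase, was at 1046, 1033 and 1235 CPM in the controls and 927, 927 and 951 CPM with RBPMS. The groups did not overlap, and Pkm fell by 0.15 ± 0.045 without control replicate 3 (edgeR adjusted p = 0.0431), that is, dropped by 9.98%. Over 6 libraries the value was -0.24 ± 0.13. It has the largest adjusted p among the called genes: leaving out any of 4 further libraries (control replicate 1 or 2, RBPMS replicate 1 or 2) raised the adjusted p to between 0.0987 and 0.166.

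Eno1, the enolase of most tissues, was at 240, 233 and 322 CPM in the controls and 211, 215 and 216 CPM with RBPMS. The groups were apart. Without control replicate 3 the fold change was -0.14 ± 0.045 and missed the threshold (edgeR adjusted p = 0.0575), and over 6 libraries it was -0.31 ± 0.15. Copies of Eno1, chiefly Eno1b, held 32.6% of the summed counts, and the summed fold change without control replicate 3 was also -0.14. Pgk1 was at 709, 710 and 1076 CPM in the controls and 657, 667 and 675 CPM with RBPMS, again apart. Its fold change was -0.088 ± 0.044 without control replicate 3 (edgeR adjusted p = 0.268) and -0.32 ± 0.19 with it. Pgam1, the phosphoglycerate mutase, did not separate, at 302 to 321 CPM in the controls and 306 to 317 CPM with RBPMS, and it had the smallest spread of all the tested genes of the list (1.06 times from lowest to highest). Eno2, the neuronal enolase, had 0 to 3 counts in a library.

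Lactate dehydrogenase was almost all of the A type. Ldha, whose tetramer favours pyruvate to lactate, was at 577, 597 and 949 CPM in the controls and 528, 542 and 525 CPM with RBPMS. The groups were apart, but the fold change of -0.14 ± 0.045 without control replicate 3 did not pass (edgeR adjusted p = 0.0605, although it passed under 6 of 16 alternatives), and the value over 6 libraries was -0.41 ± 0.21. Ldhb, the heart type, had 1 count in all, in control replicate 3. Slc16a1, the monocarboxylate transporter that carries lactate in either direction, was at 37.0, 34.6 and 46.5 CPM in the controls and 29.9, 30.1 and 32.5 CPM with RBPMS. Every RBPMS library was below every control, with a fold change of -0.22 ± 0.077 without control replicate 3 (edgeR adjusted p = 0.0979) and -0.35 ± 0.14 with it. Slc16a3, the exporter typical of strongly glycolytic cells, was near the limit of detection at 0.293 to 0.657 CPM (6 to 13 counts).

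Pdk1 (chr2:71873224-71903858, plus strand) was the only gene of the list called higher without control replicate 3. This kinase inactivates pyruvate dehydrogenase by phosphorylation. It was at 107, 107 and 111 CPM in the controls and 125, 122 and 121 CPM with RBPMS. All RBPMS libraries were higher than all controls, control replicate 3 included. Pdk1 rose by 0.20 ± 0.048 without control replicate 3 (edgeR adjusted p = 0.0129), a gain of 14.7%, and by a similar 0.18 ± 0.091 over 6 libraries, where it was not called (adjusted p = 0.587). The call is lost when control replicate 1 or 2 or RBPMS replicate 1 is left out as well, with adjusted p from 0.0745 to 0.1. With a per-library transcript length trend taken out, an alternative added after the data were seen, the 6-library value for Pdk1 was -0.00026.

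None of the other kinases passed the test. Pdk2 was at 21.9, 21.9 and 17.0 CPM in the controls and 21.5, 23.5 and 21.02 CPM with RBPMS. Pdk3 was at 10.99, 9.80 and 14.1 CPM and at 9.23, 9.99 and 9.69 CPM. Pdk4, the form induced by fasting and fatty acids, had 0 counts in all 6 libraries, which allows at most 3 counts, or 0.130 to 0.190 CPM of the unscaled library total (counting error only).

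The pyruvate dehydrogenase subunits showed small differences. Pdha1, the subunit that Pdk1 phosphorylates, was at 87.6, 81.9 and 80.1 CPM in the controls and 81.0, 81.1 and 76.3 CPM with RBPMS (-0.091 ± 0.055, edgeR adjusted p = 0.382 without control replicate 3). Pdhb, its partner, was at 59.7, 63.2 and 87.7 CPM and at 60.1, 62.6 and 65.8 CPM. Dlat, the acetyltransferase core, was at 47.5, 52.5 and 49.3 CPM and at 45.2, 47.0 and 52.5 CPM. Over all 6 libraries the groups overlapped for all 3 genes.

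Mpc1 and Mpc2 form the carrier that brings pyruvate across the inner mitochondrial membrane. Mpc2 was at 34.2, 38.1 and 76.6 CPM in the controls and 33.3, 31.9 and 31.8 CPM with RBPMS. The groups were apart, but control replicate 3 alone carried most of the distance: the fold change was -0.16 ± 0.077 without it (edgeR adjusted p = 0.240) and -0.62 ± 0.30 with it. Mpc1 was at 5.21, 7.52 and 9.81 CPM in the controls and 6.93, 7.48 and 6.41 CPM with RBPMS, with overlapping groups. The 2 processed pseudogenes of Mpc1 held 66.6% of the counts of gene and copies together. Summing them with Mpc1 turned its fold change without control replicate 3 from 0.13 to -0.080, so no direction can be given for Mpc1.

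**Figure D3:**
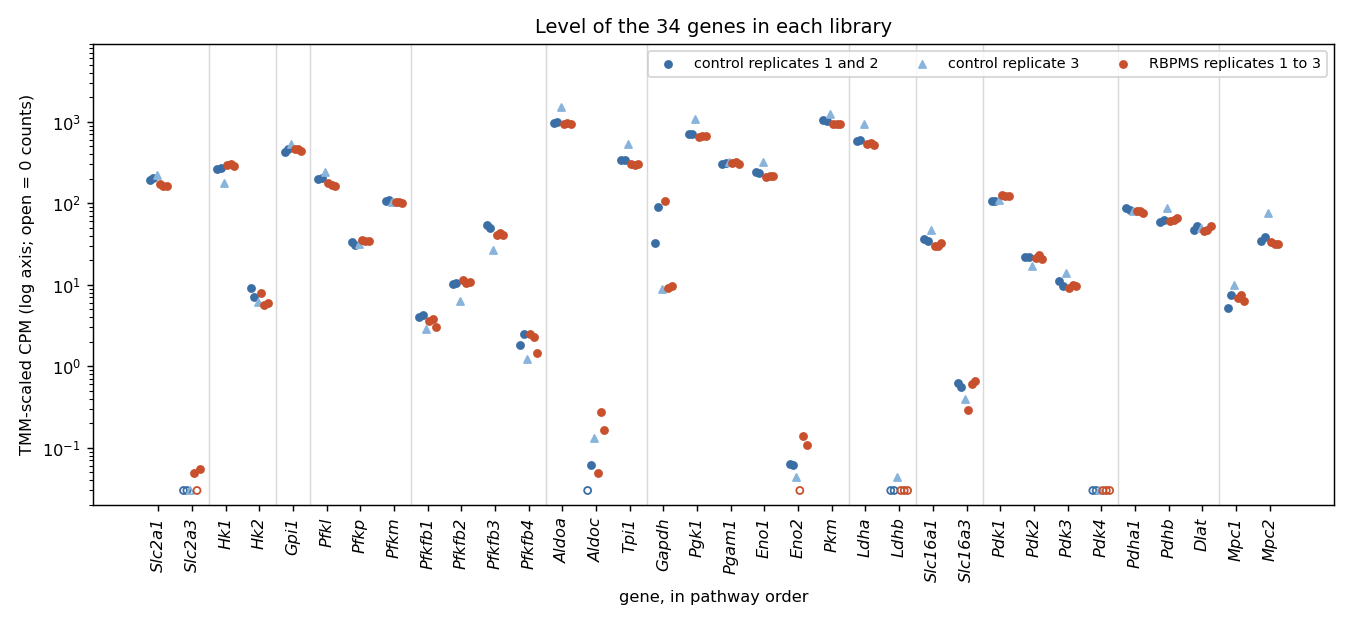
TMM-scaled CPM of all 34 genes in each library on a log axis, in pathway order, with vertical lines between steps. Circles are control replicates 1 and 2 (blue) and RBPMS replicates 1 to 3 (red), the triangle is control replicate 3, and open symbols at the bottom are libraries with 0 counts. Gapdh runs from 8.93 to 106 CPM, and no other tested gene spreads by more than 2.41 times between its lowest and highest library.

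Per kilobase of gene length, as given in the deposited table, the most abundant transcripts were Aldoa at a mean of 363 CPM per kilobase and Pgk1 at 334. Pkm (204), Ldha (187), Pgam1 (171) and Tpi1 (128 CPM per kilobase) came next, and Gpi1 (72.3), Slc2a1 (52.9) and Eno1 (44.5) after them. Pfkm stood at 31.2, Hk1 at 31.0, Pfkl at 28.9 and Pfkfb3 at 5.62 CPM per kilobase. Those lengths join all exons of a gene and exceed the principal transcript, so the order depends on the length used. Divided by principal transcript length the leading values were Aldoa 699, Pkm 419, Pgk1 410 and Ldha 351 CPM per kilobase, and Hk1 (68.7) stood above Slc2a1 (56.9). Among the mitochondrial genes Pdha1 stood at 21.8, Pdhb at 17.2, Pdk1 at 14.8 and Mpc2 at 5.58 CPM per kilobase of gene length. By principal transcript length the order turned, with Pdhb at 44.0, Mpc2 at 40.0, Pdha1 at 28.6 and Pdk1 at 22.2 CPM per kilobase.

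For related forms of 1 enzyme or transporter, shares of the family's counts per kilobase were compared for 14 genes by an exact two-sided permutation test, which cannot go below 0.1 with 3 libraries against 3 or below 0.2 without control replicate 3. Of these shares 6 separated the groups over all 6 libraries at that smallest p of 0.1, with an adjusted p of 0.233, and so none passed. Shares within the same family depend on each other and are not separate results. A share also does not take out a length trend such as that of control replicate 3. Pfkl held 46.8, 46.7 and 52.2% of phosphofructokinase in the controls and 44.5, 42.7 and 42.6% with RBPMS. Pfkm held 49.3, 49.7 and 44.4% and then 51.1, 53.0 and 52.9%, and Pfkp 3.95, 3.55 and 3.39% and then 4.38, 4.29 and 4.43%. The Pfkl share was thus lower and the other 2 higher in every RBPMS library, with a mean difference for Pfkl of -5.29 percentage points, or -3.47 without control replicate 3. Which of Pfkl and Pfkm is the larger depends on the length used: by principal transcript length Pfkl held a mean of 53.6%, Pfkm 37.9% and Pfkp 8.44%.

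Among the pyruvate dehydrogenase kinases Pdk1 held 55.1, 56.0 and 56.7% in the controls and 60.7, 58.0 and 59.9% with RBPMS. Pdk3 held 17.2, 15.7 and 21.9% and then 13.6, 14.5 and 14.5%. The share of Pdk1 was higher and that of Pdk3 lower in each RBPMS library than in each control. Pfkfb3 made up 65.9 to 71.9% of the Pfkfb family in the controls and 64.0 to 67.9% with RBPMS, and Hk2 3.66 to 4.76% and 2.61 to 3.74% of hexokinase, both with overlap between the groups. By principal transcript length the mean share of Hk2 was 1.86%. Mpc1 was the last of the 6 separated shares (31.1 to 41.0% and 41.5 to 45.3% of the carrier), but it shares reads with its copies, and by principal transcript length its mean share was 16.6%.

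**Figure D4:**
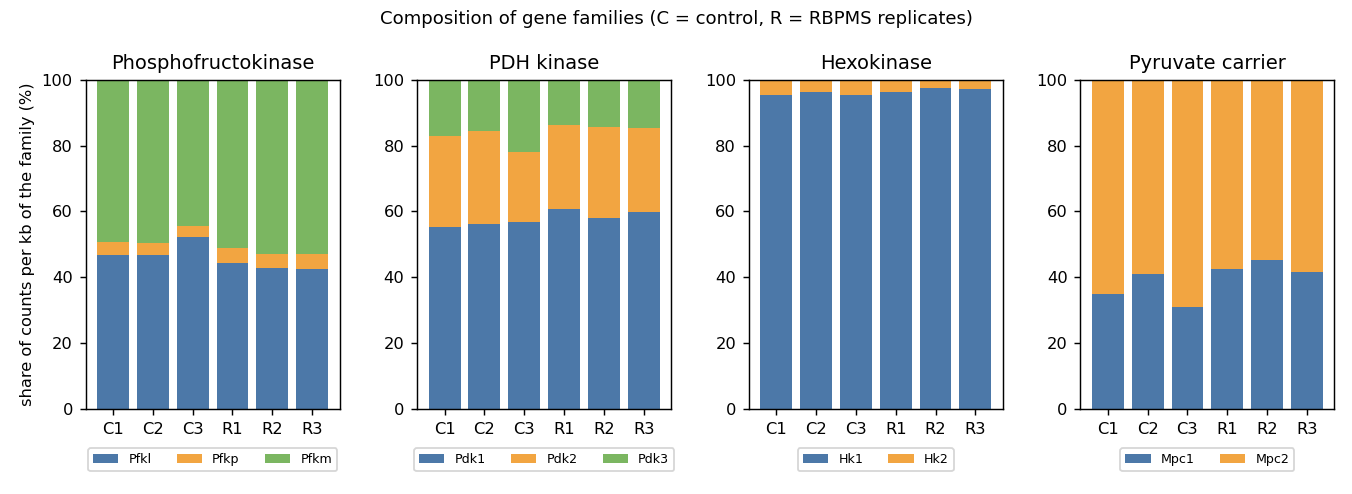
Share of counts per kilobase of gene length held by each member of 4 families, stacked to 100%, in control (C1 to C3) and RBPMS (R1 to R3) libraries. The Pfkl band is 46.7 to 52.2% in the controls and 42.6 to 44.5% with RBPMS, and the Pdk1 band 55.1 to 56.7% and 58.0 to 60.7%.

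Control replicate 3 departed from the other controls by transcript length, and the genes of the pathway broadly did so too. Over 28 tested genes, Gapdh left out, the log2 difference between control replicate 3 and the mean of the other 2 controls had a correlation of -0.68 with the log length of the principal transcript. With Gapdh, over 29 genes, it was only -0.31. Over 11755 tested genes with a length, none left out as an outlier, it was -0.66. These are descriptions across genes, which share the same libraries. The median difference fell from 0.69 in the shortest of 5 length classes of genes to -0.68 in the longest. Several short transcripts of the list were high in that library, with 1.08 for Mpc2, 0.69 for Ldha, 0.66 for Tpi1 and 0.64 for Aldoa, but Pfkfb1 (-0.53), Pdk2 (-0.36), Pgam1 (0.058) and Gapdh (-2.59) were not. Several long ones were low, with -0.96 for Pfkfb3, -0.72 for Pfkfb2 and -0.57 for Hk1, but Slc16a1 (0.38), Pfkl (0.26), Pdk1 (0.049) and Dlat (-0.018) were not. The genes of the list took 0.771% of all counts in control replicate 3, 0.597 and 0.609% in the other controls and 0.560 to 0.572% with RBPMS. The part of the length trend in the 6-library fold changes was not separated from other differences of that library. With a per-library trend on transcript length taken out, the 6-library fold changes were -0.36 for Slc2a1, -0.43 for Pfkl, -0.16 for Pfkfb3, -0.25 for Tpi1, -0.20 for Pkm and -0.26 for Ldha, and none was called.

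**Figure D5:**
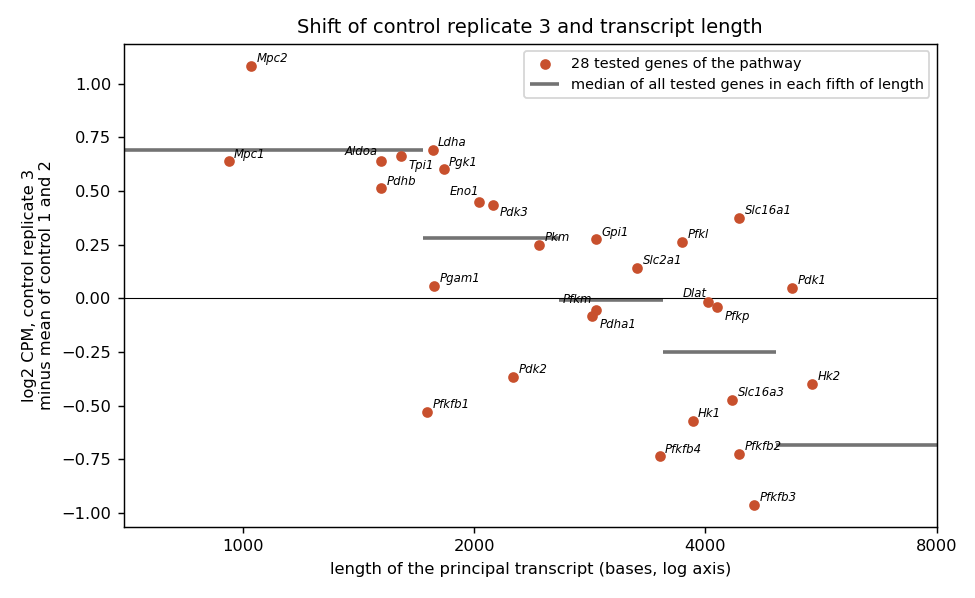
Log2 CPM of control replicate 3 minus the mean of control replicates 1 and 2 (vertical axis) against the length of the principal transcript in bases (horizontal log axis) for 28 tested genes of the list, with grey bars for the median of all tested genes in each of 5 length classes. The bars step down from 0.69 to -0.68, and the points run from Mpc2 at 1.08 to Pfkfb3 at -0.96.

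Related genes outside the list were counted in the same fit. Of 35 further glucose transporters, isoenzymes and regulators 19 were tested, and 2 (10.5%) were called without control replicate 3, against 7.24% of all genes. Slc2a9, a transporter of urate and hexoses, was at 20.6, 20.4 and 16.02 CPM in the controls and 28.2, 33.8 and 29.3 CPM with RBPMS, and rose by 0.57 ± 0.091 (edgeR adjusted p = 0.000443; 0.68 ± 0.14 over 6 libraries). Bsg, the chaperone that brings Slc16a1 to the cell surface, was at 461, 482 and 766 CPM in the controls and 420, 419 and 410 CPM with RBPMS, and fell by 0.18 ± 0.045 (adjusted p = 0.0180), with -0.45 ± 0.21 over 6 libraries. As for Tpi1 and Ldha, control replicate 3 was the highest library.

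In the pentose phosphate pathway, which branches off after hexokinase, 0 of 7 genes were called, although all 7 fold changes were below 0 (median -0.091, with Tkt at -0.091 and Taldo1 at -0.0085). The genes listed for glycogen metabolism had 0 called of 9 tested (Gyg 0.12, and -0.049 for the chr5 gene that this annotation names Pgm1). The serine branch had 0 of 5 (Shmt2 -0.098, Psat1 -0.22). In the hexosamine branch 1 of 4 fell, Uap1, which makes UDP-N-acetylglucosamine, by 0.30 ± 0.081 (edgeR adjusted p = 0.0278), with -0.38 ± 0.12 over 6 libraries. Of 4 tested genes of gluconeogenesis and pyruvate carboxylation 1 rose, Fbp1, whose enzyme reverses the phosphofructokinase step. Fbp1 was at 28.6, 35.6 and 53.9 CPM in the controls and 45.5, 46.3 and 41.8 CPM with RBPMS, with a rise of 0.48 ± 0.088 without control replicate 3 (adjusted p = 0.00179) and 0.18 ± 0.23 over 6 libraries, where the groups overlapped. The citrate cycle had 0 called of 16 (Cs -0.0079) and the glycerol phosphate and malate shuttles 0 of 8 (Got2 0.089, Mdh1 0.032). Over all 6 libraries no gene of these lists was called.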

How the data were processed

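RNA-seq of 6 libraries was analysed, 3 control and 3 RBPMS, grouped by the titles and treatment labels. Trizol extraction, ribosomal RNA removal and an NEB library kit were used, per the labels. The authors deposited whole-number counts per gene with gene lengths. FastQC, Salmon and the mm10 build are named per the submitters' processing notes, without versions, strand use or the step from Salmon to whole counts. All 6 columns of per-sample values were used. Aldoa has a second row with 1 to 12 counts, which was left out.

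Counts were fitted as deposited in R 4.3.3 with edgeR 4.0.16 (filterByExpr by group, TMM, quasi-likelihood test, Benjamini-Hochberg adjustment over all genes tested, threshold 0.05). The standard error is the fold change over the root of its F statistic. Depth of 15779567 to 23076124 counts limits the genes under about 10 counts. Near copies were found with BLAST 2.17.0 on GENCODE M21 transcripts (GRCm38; at least 90% identity, 200 aligned bases and 50% of the copy). Promoter motifs were searched in RefSeq windows, which 33 of 34 genes matched by symbol. Alternatives were DESeq2 1.42.0, limma-voom 3.58.1, other scalings, filters and length trends (loess span 0.3), and each library left out. On simulated counts the test over 6 libraries (13898 genes) found 0% of the genes changed 1.25-fold or 1.5-fold, 31.9% at 2-fold and 81.3% at 4-fold, and 2 of its 56 calls were false. Over 5 libraries (14123 genes) the shares were 34, 68, 84 and 97.9%, and 8 of 148 calls were false. Counts were drawn independently for each gene, with the spread fitted to these same libraries. No simulated library had a shift shared across genes, such as the length trend of control replicate 3. These rates may therefore not hold for the real fits.

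All 34 genes are named. Of other lists the called genes are named, or up to 2 abundant ones where none was called (1 such gene is not reported here), and of marker lists the defining ones. The genes, lists, tests and the choice to leave out control replicate 3 were made with earlier results of these data known.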

Additional observations from a re-analysis of the deposited data

How the results depend on the processing

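Counts of called genes depended on control replicate 3. Over 6 libraries the settings tried called 0 genes, except 5 with no filter on low counts, 56 with the DESeq2 Wald test, 3 with the gene length trend as an offset, 1 with the transcript length trend and 1022 without control replicate 3, and genes of the list were called only in the last (6). Leaving out 1 library gave 0 to 1022 genes and 0 to 6 genes of the list. Starting from the 5 libraries, leaving out a further library gave 415 to 1017 genes instead of 1022 (415 without control replicate 1, 627 when control replicate 2 and 616 when RBPMS replicate 1 was left out) and 2 to 7 genes of the list instead of 6 (2 without control replicate 1, 3 without control replicate 2). Slc2a1 and Pfkl were called in all 16 alternatives to the 5-library fit, Pfkfb3 in 15 (adjusted p = 0.0981 without control replicate 1, edgeR), Pdk1 in 13, Tpi1 in 12 and Pkm in 11, and none of the 6 changed direction in them. Gapdh was called there with no filter on low counts (-0.55) and without RBPMS replicate 1 (-2.70). The replicate numbers share no stated culture or day, and deviations of same-numbered control and RBPMS libraries correlated at 0.0505, -0.0252 and 0.0131, so they were not treated as pairs. With the replicate block the 5-library fit called 917 genes, 6 of them on the list (Hk1 at 0.16 gained, Pkm lost at an edgeR adjusted p of 0.0682), and the 6-library fit 0.

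Directions turned for some genes, none of them past the threshold in the fit they turned in. Over 6 libraries these were Pfkp (-0.21 with the gene length trend, -0.0051 with the transcript length trend), Pfkfb1 (0.019), Pdk1 (-0.00026), Pdhb (0.024) and Mpc1 (0.19) with the transcript length trend, Pfkfb3 with limma-voom (0.0011), Slc16a3 with total library size (0.0014), and Pgam1 (0.0048 with total library size, 0.0019 with at least 1 CPM in 3 libraries, 0.094 and 0.11 with the gene and transcript length trends, 0.00059 with copies summed). Over 5 libraries they were Pfkfb4 (0.17) and Pdhb (-0.0015) with the replicate block, Pdk2 with the gene length trend (-0.0016) and Mpc1 with copies summed (-0.080). The Pdk2 share difference was -0.22 percentage points from raw counts, and -1.75 to 1.70 leaving out each library. Leaving out each library, the 6-library fold changes that turned ranged from -0.14 to 0.028 (Gpi1), -0.25 to 0.023 (Pfkfb1), -0.33 to 0.11 (Pfkfb3), -0.020 to 0.48 (Pfkfb4), -2.22 to 1.03 (Gapdh), -0.029 to 0.019 (Pgam1), -0.20 to 0.28 (Slc16a3), -0.27 to 0.033 (Pdhb) and -0.33 to 0.13 (Mpc1). The 5-library ones ranged from -0.025 to 0.082 (Gpi1), -0.22 to 0.22 (Pfkfb4), -2.70 to 0.38 (Gapdh), -0.014 to 0.050 (Pgam1), -0.38 to 0.093 (Slc16a3), -0.041 to 0.042 (Pdk2), -0.0098 to 0.074 (Pdhb), -0.12 to 0.021 (Dlat) and -0.11 to 0.42 (Mpc1). The cause was not tested for any of these. Depth limits Slc2a3, Aldoc, Eno2, Ldhb, Pdk4 and Slc16a3.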
